A study of Gorilla gorilla gorilla with 14 samples.

Results

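The NEUROD family of transcription factors was examined in accessible chromatin of gorilla cortical cells, through the 39 regions of the count table, of 204249 with a gorilla position, whose closest gene was NEUROD1, NEUROD2, NEUROD4 or NEUROD6. All regions of these genes were taken, whatever their signal, but the genes themselves were chosen with earlier results of these data known. A promoter region is one listed at most 1000 bp from its gene, and any other region is called distal. By this rule 6 regions were promoter regions and 33 were distal. NEUROD1 had 7 regions, NEUROD2 had 9, NEUROD4 had 12 and NEUROD6 had 11.

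NEUROD proteins are basic helix-loop-helix activators that pair with E proteins, bind E-box motifs and switch on genes of neuronal differentiation. In the developing cortex they act downstream of the neurogenins, in a cascade that runs through intermediate progenitors to young excitatory neurons, while ID proteins and Notch-driven HES repressors oppose bHLH activators in stem cells. NEUROD1 is also known for its role in the endocrine pancreas, NEUROD2 and NEUROD6 mark excitatory neurons of the mouse cortex, and NEUROD4 is known in mouse and chick from progenitors and newly born neurons.

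Cells came from cerebral organoids, neural tissue cultured from pluripotent cells, here from the gorilla induced pluripotent stem cell line GC1, and were sorted in week 8 of culture. All groups therefore share 1 line, and carry no stated genetic change or treatment. The groups were apical radial glia (aRG, 3 libraries), the stem cells at the ventricular surface, basal radial glia (bRG, 2 libraries), stem cells detached from it, basal intermediate progenitors (bIP, 5 libraries), the dividing cells between stem cell and neuron, and neurons (N, 4 libraries). Open chromatin was read out by ATAC-seq of bulk cells, where a transposase inserts adapters at exposed sites. Levels are given in CPM, read counts scaled by library total and TMM factor, as mean ± SD over libraries. Totals lay between 12834983 and 26660427 counts per library, and 3 counts corresponded to at most 0.234 CPM. Numbering of the libraries falls into 2 consecutive runs of 7, called here the first and second library series. The first holds aRG1, aRG2, bIP1 to bIP3, N1 and N2, and the other libraries, with both of bRG, make up the second, the number after a group's name being its replicate. Whether replicates were separate cultures is not stated, and the p-values thus reflect only the spread of these libraries, which may be technical.

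The sorted groups were checked against promoters of marker genes. The summed promoter accessibility of 5 radial glia genes, SOX2, PAX6, HES1, VIM and NES, was 276 to 285 CPM in aRG, 225 to 244 CPM in bRG, 100 to 178 CPM in bIP and 72.1 to 92.0 CPM in N. The 3 of 4 measured intermediate progenitor genes, EOMES, PPP1R17 and PENK, summed to 34.6 to 57.9 CPM in aRG, 57.7 to 58.1 CPM in bRG, 76.0 to 128 CPM in bIP and 42.3 to 53.4 CPM in N. EOMES was highest in bIP, with a mean of 83.0 CPM, and PENK lowest there, with 5.52 CPM. The 4 of 5 measured neuron genes, STMN2, MAPT, BCL11B and RBFOX3, summed to 60.6 to 67.9 CPM in aRG, 55.5 to 57.5 CPM in bRG, 74.8 to 140.3 CPM in bIP and 99.4 to 150.1 CPM in N. STMN2 and MAPT were highest in N, with means of 54.2 and 52.4 CPM, while BCL11B and RBFOX3 had their highest means in bIP, with 23.6 and 1.95 CPM. HOPX, FAM107A, TNC and PTPRZ1, the markers of basal radial glia, summed to 82.7 to 93.8 CPM in bRG and 92.5 to 93.8 CPM in aRG, and 0 of these 4 promoters were called between bRG and aRG. Cell types outside the excitatory lineage were checked in the same way. The 2 measured genes of the retina list of 4 summed to 8.55 to 12.5 CPM in aRG, 10.4 to 11.4 CPM in bRG, 7.95 to 12.8 CPM in bIP and 4.08 to 6.52 CPM in N. The 3 of 4 measured mesenchyme genes summed to 37.4 to 40.9 CPM in aRG, 40.3 to 40.7 CPM in bRG, 16.6 to 26.4 CPM in bIP and 18.6 to 22.7 CPM in N. The 5 genes of the GABAergic list summed to 68.7 to 84.6 CPM in aRG, 65.0 to 72.6 CPM in bRG, 57.6 to 88.5 CPM in bIP and 39.6 to 61.8 CPM in N. The 2 of 3 measured endocrine pancreas genes summed to 23.6 to 26.8 CPM in aRG, 24.4 to 24.8 CPM in bRG, 22.9 to 32.4 CPM in bIP and 16.6 to 21.9 CPM in N. The 2 of 4 measured genes of pluripotent cells summed to 1.38 to 3.38 CPM in aRG, 3.65 to 4.25 CPM in bRG, 2.70 to 4.14 CPM in bIP and 1.64 to 3.33 CPM in N. From these lists PDX1 (log2 change 0.50 ± 0.19, adjusted p = 0.0322) and LIN28A (1.63 ± 0.34, adjusted p = 0.000247) were called higher in bIP than in aRG, as the NEUROD promoters were. The other measured gene of the pancreas list and that of the pluripotent list were not called. ISL1 had 18.2 ± 2.47 CPM in bIP and 18.7 ± 0.929 CPM in aRG. DPPA4 had 1.19 ± 0.279 CPM in bIP and 1.54 ± 0.854 CPM in aRG. The 4 genes of the cerebellar granule list summed to 65.2 to 71.4 CPM in aRG, 63.9 to 64.0 CPM in bRG, 35.4 to 65.5 CPM in bIP and 26.4 to 33.8 CPM in N. The single measured gene of 3 for choroid plexus and hem had 6.32 to 9.02 CPM in aRG, 7.07 to 8.75 CPM in bRG, 2.88 to 4.38 CPM in bIP and 1.29 to 2.26 CPM in N. None of the measured marker promoters had a group mean of 0, and the part of these cells in the NEUROD results was not tested.

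Each NEUROD gene had 1 promoter region at a listed distance of 0 bp, which was also its most accessible promoter region and is called its main promoter. In gorGor6 these were chr2B:68366250-68367513 for NEUROD1, chr5:42347377-42348903 for NEUROD2, chr12:29976650-29977588 for NEUROD4 and chr7:31967661-31969198 for NEUROD6. NEUROD1 and NEUROD2 each had a further promoter region, at 907 bp (chr2B:68365669-68366134) and 583 bp (chr5:42349001-42349897). The distal regions reached out to 7024 bp at NEUROD1, 15267 bp at NEUROD2, 45573 bp at NEUROD4 and 39425 bp at NEUROD6. In the human coordinates listed beside the gorilla ones, the other 6 NEUROD1 regions all lay on the lower-coordinate side of the start, while 10 of the 11 distal NEUROD4 regions and 8 of the 10 distal NEUROD6 regions lay on the higher-coordinate side. No region assigned to another gene lay between the regions of a NEUROD gene. Strand, exons and introns were not used here, and assignment to the closest gene does not show which gene a distal region acts on.

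NEUROD1 opened in intermediate progenitors and was partly closed again in neurons at its promoter. Its main promoter had 10.6, 10.4 and 13.5 CPM in the 3 aRG libraries, 11.7 and 11.4 CPM in bRG, 35.3, 33.5, 25.7, 40.5 and 47.3 CPM in bIP, and 25.0, 29.8, 14.3 and 27.3 CPM in N. Every bIP library lay above every aRG and bRG library, while N and bIP overlapped, with N3 the lowest neuron library. Means were 36.5 ± 8.08 CPM in bIP (n = 5) and 11.5 ± 1.77 CPM in aRG (n = 3). The log2 change between them was 1.65 ± 0.22 (SE), a 3.14-fold gain, with an adjusted p of 1.12e-06 in edgeR's quasi-likelihood test across all regions. In N the mean was 24.1 ± 6.82 CPM (n = 4), and the log2 change against bIP was -0.59 ± 0.19 (adjusted p = 0.0108). This decrease was -0.24 and no longer called when libraries were scaled by loess offsets. It was also unequal between library series. The log2 difference of means was -0.19 in the first, where N and bIP libraries overlapped, and -1.14 in the second, where they did not. In bulk samples, fewer cells with an open region and a lower opening in every cell cannot be told apart.

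The promoter region of NEUROD1 at 907 bp changed more than the main one. It had 0.632, 1.06 and 1.67 CPM in aRG, 1.82 and 1.78 CPM in the bRG libraries, 9.84, 9.90, 6.80, 12.7 and 13.6 CPM in bIP, and 2.92, 3.26, 2.98 and 2.91 CPM in N. All 4 neuron libraries lay below all 5 bIP libraries and above all radial glia libraries. The log2 change was 3.24 ± 0.26 for bIP against aRG and -1.82 ± 0.21 for N against bIP (adjusted p = 5.22e-08), the second being a 3.54-fold loss. Of the 5 distal NEUROD1 regions 4 rose in bIP against aRG, where 24.0% of all regions did. Between N and bIP 1 rose and 1 fell, beside 28.8% and 26.4% of all regions, so these counts are near the background. The farthest, at 7024 bp (chr2B:68359336-68360034), had 8.97, 8.70, 6.39 and 10.5 CPM in N against 4.54, 4.21, 5.62, 5.39 and 6.81 CPM in bIP, and rose by a log2 change of 0.69 ± 0.20 (adjusted p = 0.00393). N3 fell within the bIP range there, and the call was lost in the second series alone, at 0.46. The neighbouring region at 6027 bp (chr2B:68360411-68361028) averaged 9.07 ± 1.90 CPM in N and 7.26 ± 1.44 CPM in bIP, with a log2 change of 0.31 that was not called. Both were close to closed in radial glia, at 0.783 CPM or less on average. The region at 5238 bp (chr2B:68361445-68361817) averaged 4.49 ± 1.16 CPM in N and 5.95 ± 0.988 CPM in bIP. Its log2 change of -0.47 (adjusted p = 0.0440) was lost on leaving out any of bIP1, bIP2, bIP3, bIP5, N1 and N2. The nearest region, at 1429 bp (chr2B:68365035-68365612), averaged 3.45 ± 1.24 CPM in bIP against 0.456 ± 0.369 CPM in aRG. Only the region at 2387 bp (chr2B:68363970-68364638), the most accessible of the 5, was not called between bIP and aRG, with 7.94 ± 2.88 CPM in bIP and 5.51 ± 0.309 CPM in aRG, although scaling by library totals (adjusted p = 0.0271) and the fit of these groups alone (0.0389) called it higher in bIP.

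**Figure D1:**
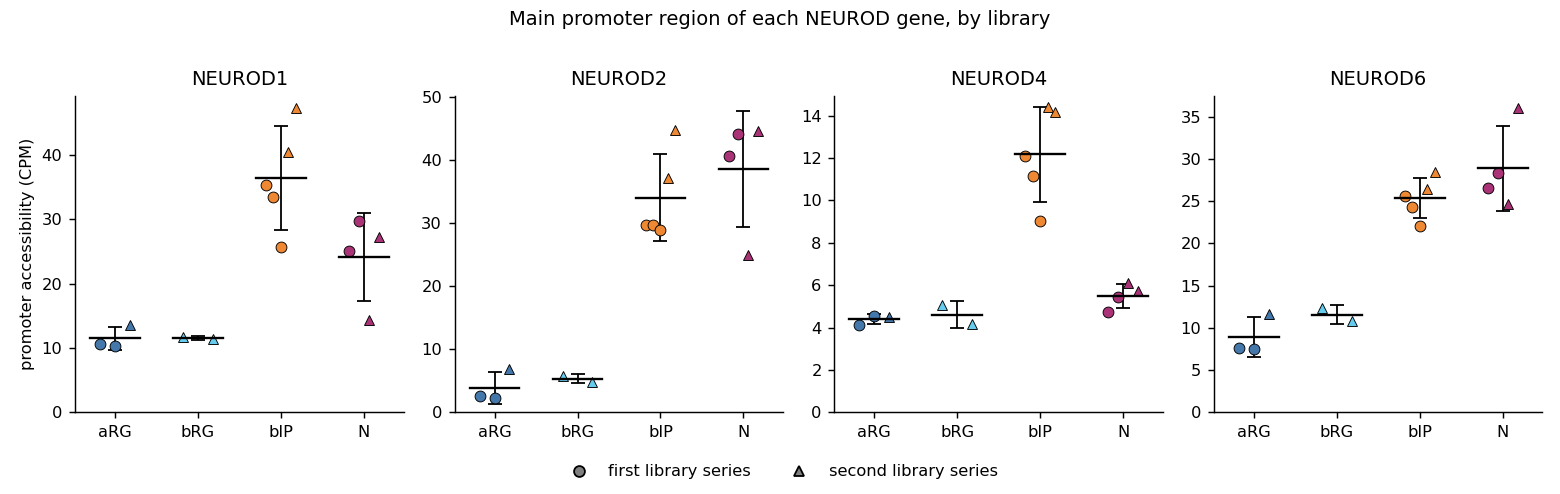
Accessibility of the main promoter of each NEUROD gene in CPM (vertical axis, from 0) for each library, by cell type; circles are the first and triangles the second library series, bars the mean ± SD. All 4 promoters are higher in bIP than in both radial glia groups, and NEUROD4 in N, at a mean of 5.49 CPM, lies below bIP and just above the 4.39 CPM of aRG.

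NEUROD2, a factor of postmitotic excitatory neurons, had the largest gain of the 4 main promoters in bIP and was still open in neurons. The main promoter had 2.57, 2.31 and 6.86 CPM in aRG, 5.81 and 4.83 CPM in the bRG libraries, 29.7, 29.7, 28.9, 37.2 and 44.7 CPM in bIP, and 40.7, 44.2, 25.0 and 44.6 CPM in N. Neither bIP nor N overlapped with radial glia, and N and bIP overlapped each other. For bIP against aRG the log2 change was 3.13 ± 0.28, an 8.78-fold gain (adjusted p = 2.57e-09). It ranged from 2.78 to 3.73 on leaving out single libraries, the highest value being that without aRG3, whose level was above those of aRG1 and aRG2. For N against bIP it was 0.19 ± 0.21 (adjusted p = 0.462), and its sign differed between library series, with log2 differences of means of 0.53 in the first, where N lay above bIP without overlap, and -0.29 in the second. With loess offsets it was called, at 0.53 (adjusted p = 0.00877), and with only regions of at least 10 CPM in 2 libraries at 0.45 (adjusted p = 0.0254). The promoter region at 583 bp averaged 9.96 ± 4.65 CPM in N, 9.05 ± 2.39 CPM in bIP and 2.98 ± 1.25 CPM in aRG. Its log2 change was 1.59 ± 0.32 for bIP against aRG (adjusted p = 0.000158) and 0.14 ± 0.26 for N against bIP, which was not called. At this second promoter region N lay above bIP without overlap in the first series, by 0.87, and below it without overlap in the second, by -0.90.

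All 7 distal regions of NEUROD2 rose in bIP against aRG, where 24.0% of all regions did. Between N and bIP 28.8% of all regions rose and 26.4% fell, and of these 7 only 1 was called, as higher in N. That region, at 12263 bp (chr5:42360670-42361011), had 8.69, 13.3, 8.26 and 15.7 CPM in N and 5.86, 5.05, 6.11, 7.56 and 11.5 CPM in bIP. The groups overlapped, and the log2 change of 0.66 ± 0.25 (adjusted p = 0.0253) was lost on leaving out any of bIP2, bIP4, N2 and N4, at values down to 0.41 without N2, and in the second series alone, at 0.33. It was the lowest of the NEUROD2 regions in radial glia, at 0.615 ± 0.629 CPM in aRG, and its gain in bIP was 11.4-fold. That fold rests on low values, of 0.395, 0.125 and 1.32 CPM in aRG1, aRG2 and aRG3, where 3 counts in aRG2 are 0.171 CPM. The log2 difference of means for bIP against aRG was 4.12 in the first series and 2.73 in the second, with 1 aRG library. The farthest region, at 15267 bp (chr5:42363649-42364690), was also the most accessible distal one. Its means were 3.19 ± 1.10 CPM in aRG, 3.84 ± 0.206 CPM in bRG, 17.7 ± 5.03 CPM in bIP and 21.5 ± 6.46 CPM in N. At 10025 bp (chr5:42358432-42359218) the mean was 20.3 ± 4.06 CPM in N, 15.0 ± 4.72 CPM in bIP and 2.51 ± 0.902 CPM in aRG. The single distal region on the other side of the gene, at 4497 bp (chr5:42343313-42343922), had 12.6 ± 2.35 CPM in N, 10.4 ± 4.60 CPM in bIP and 1.37 ± 0.988 CPM in aRG. These 3 regions were not called between N and bIP, at log2 changes of 0.29, 0.43 and 0.32 (adjusted p = 0.262, 0.0615 and 0.239), but were called higher in N with loess offsets (0.66, 0.81 and 0.61), with the 10 CPM filter and without N3. At 10025 bp the call was also made with library totals, with the replicate number as a further term (a replicate block) and without bIP5. The nearest region, at 1612 bp (chr5:42350030-42350850), barely moved, with 5.40 ± 2.29 CPM in bIP and 3.12 ± 0.484 CPM in aRG. Its call (log2 change 0.76, adjusted p = 0.0321) was lost on leaving out any aRG library, bIP4 or bIP5. It was not called between N and bIP (log2 change -0.19), but was lower in N in the second series alone, by -1.13 (adjusted p = 0.00439).

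NEUROD4 was open in intermediate progenitors and lost accessibility in neurons at 11 of its 12 regions. The main promoter had 4.11, 4.55 and 4.51 CPM in aRG, 5.06 and 4.17 CPM in the bRG libraries, 12.1, 11.1, 9.02, 14.4 and 14.2 CPM in bIP, and 4.72, 5.44, 6.10 and 5.72 CPM in N. The bIP libraries stood above all others, and N libraries lay just above the aRG ones. The log2 change was 1.44 ± 0.19 for bIP against aRG (adjusted p = 7.89e-07) and -1.17 ± 0.17 for N against bIP (adjusted p = 1.92e-06). For N against aRG it was 0.27 ± 0.20, which was not called (adjusted p = 0.233). It was called higher in N with library totals (0.45, adjusted p = 0.0370), loess offsets (0.44, adjusted p = 0.0338) and the 10 CPM filter (0.57, adjusted p = 0.0107). Against bRG, N was called higher with loess offsets (0.50, adjusted p = 0.0397) and the 10 CPM filter (0.50, adjusted p = 0.0456). Among its 11 distal regions, 10 rose in bIP against aRG and 10 fell in N against bIP, beside 24.0% and 26.4% of all regions. The region not called between N and bIP, at 5274 bp, was named after its values were seen, with a log2 change of -0.75 and an adjusted p of 0.0503.

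Distal NEUROD4 regions lost up to 9.47-fold in neurons, where the promoter lost 2.25-fold. At 45573 bp (chr12:29931037-29931545) the libraries had 2.41, 2.74 and 4.80 CPM in aRG, 3.94 and 4.92 CPM in the bRG libraries, 11.1, 9.90, 8.26, 16.1 and 15.5 CPM in bIP, and 1.56, 1.09, 1.10 and 1.36 CPM in N. Neurons were the lowest of the 4 groups without overlap. The log2 change for N against bIP was -3.24 ± 0.22 (adjusted p = 4.25e-11), and for N against aRG it was -1.39 ± 0.25 (adjusted p = 2.77e-05). The region at 31119 bp (chr12:29944718-29945983) had 1.68 ± 0.471 CPM in N, 15.0 ± 2.56 CPM in bIP and 3.72 ± 1.20 CPM in aRG. Its log2 change was -3.16 ± 0.23 for N against bIP and -1.16 ± 0.26 for N against aRG. At 40762 bp (chr12:29935219-29936381), the most accessible distal region, the means were 11.2 ± 1.77 CPM in aRG, 13.5 ± 0.486 CPM in bRG, 31.2 ± 5.07 CPM in bIP and 5.95 ± 1.01 CPM in N. These 3 regions were called less accessible in neurons than in aRG as well as in bIP. The nearest distal region, at 1670 bp (chr12:29978755-29979925), was different, with 5.87 ± 0.484 CPM in N, 22.5 ± 3.96 CPM in bIP and 2.38 ± 1.32 CPM in aRG. It stayed above aRG in neurons by a log2 change of 1.30 ± 0.25, although that call was lost in the second series alone, at 0.51. Over all 11 distal regions, 5 were higher and 5 lower in N than in aRG, beside 37.1% and 29.2% of all regions.

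NEUROD6, a marker of young pyramidal neurons in the mouse, had a promoter that stayed open in neurons beside distal regions of several kinds. The main promoter had 7.67, 7.49 and 11.6 CPM in aRG, 12.3 and 10.8 CPM in the bRG libraries, 25.7, 24.3, 22.1, 26.4 and 28.4 CPM in bIP, and 26.5, 28.3, 24.6 and 36.0 CPM in N. Both bIP and N lay above all radial glia libraries, and overlapped each other. The log2 change was 1.50 ± 0.18 for bIP against aRG (adjusted p = 1.61e-07) and 0.16 ± 0.15 for N against bIP (adjusted p = 0.391). The second of these was called with loess offsets, at 0.53 (adjusted p = 0.000195), and with the 10 CPM filter, at 0.44 (adjusted p = 0.000902). Its distal regions divided into 7 that rose, 1 that fell and 2 that were not called between bIP and aRG, where 24.0% of all regions rose and 20.9% fell. Between N and bIP 2 rose and 6 fell, beside 28.8% and 26.4% of all regions.

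A distal NEUROD6 region at 16949 bp (chr7:31984264-31985761) was a radial glia region. It had 23.4, 24.2 and 27.1 CPM in aRG, 30.2 and 26.4 CPM in the bRG libraries, 12.9, 11.0, 10.1, 16.2 and 12.8 CPM in bIP, and 5.69, 5.30, 5.86 and 5.87 CPM in N. The radial glia, bIP and N libraries formed levels that did not overlap, in falling order. The log2 change was -0.9996 ± 0.16 for bIP against aRG (adjusted p = 1.15e-05) and -1.17 ± 0.16 for N against bIP (adjusted p = 9.01e-07). It was the single region of the 39 that was called lower in bIP than in aRG. The most accessible region of the locus, at 21599 bp (chr7:31988918-31990605), had 36.6 ± 0.751 CPM in aRG, 34.1 ± 2.39 CPM in bRG, 43.4 ± 3.04 CPM in bIP and 18.2 ± 3.16 CPM in N. It was not called between bIP and aRG (log2 change 0.24, adjusted p = 0.241; 0.42 and called with loess offsets, 0.31 and called with library totals) and fell in N by 1.26 ± 0.15 on the log2 scale against bIP. The region at 31533 bp (chr7:31998846-32000408) was instead opened in bIP. It had 12.3 ± 2.79 CPM in N, 23.3 ± 3.63 CPM in bIP and 3.19 ± 1.49 CPM in aRG, with a log2 change of 2.88 ± 0.25 for bIP against aRG and -0.96 ± 0.20 for N against bIP. At the far end, the region at 39425 bp (chr7:32006835-32007516) was low throughout, at 2.40 ± 0.307 CPM in aRG, 3.57 ± 0.977 CPM in bRG, 3.20 ± 1.09 CPM in bIP and 1.69 ± 0.478 CPM in N.

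The NEUROD6 regions that rose in neurons lay close to the gene. At 3713 bp (chr7:31962851-31964612) the level was 11.9, 12.9, 10.7 and 19.1 CPM in N and 7.91, 7.83, 8.05, 9.28 and 12.3 CPM in bIP. The groups overlapped through bIP5, and the log2 change of 0.56 ± 0.19 (adjusted p = 0.0130) was lost on leaving out bIP4 or N4 and in the second series alone. The region at 2077 bp (chr7:31970414-31971043), named after its values were seen, had 9.28, 5.37, 6.39 and 12.2 CPM in N against 3.75, 3.62, 4.30, 2.87 and 3.04 CPM in bIP. There the 2 groups did not overlap, and the log2 change was 1.22 ± 0.26 (adjusted p = 0.000284). The nearest region, at 1972 bp (chr7:31965585-31966354), averaged 8.56 ± 1.72 CPM in N, 10.3 ± 2.68 CPM in bIP and 3.65 ± 1.81 CPM in aRG, and was not called between N and bIP except without N1, at -0.49 (adjusted p = 0.0438).

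**Figure D2:**
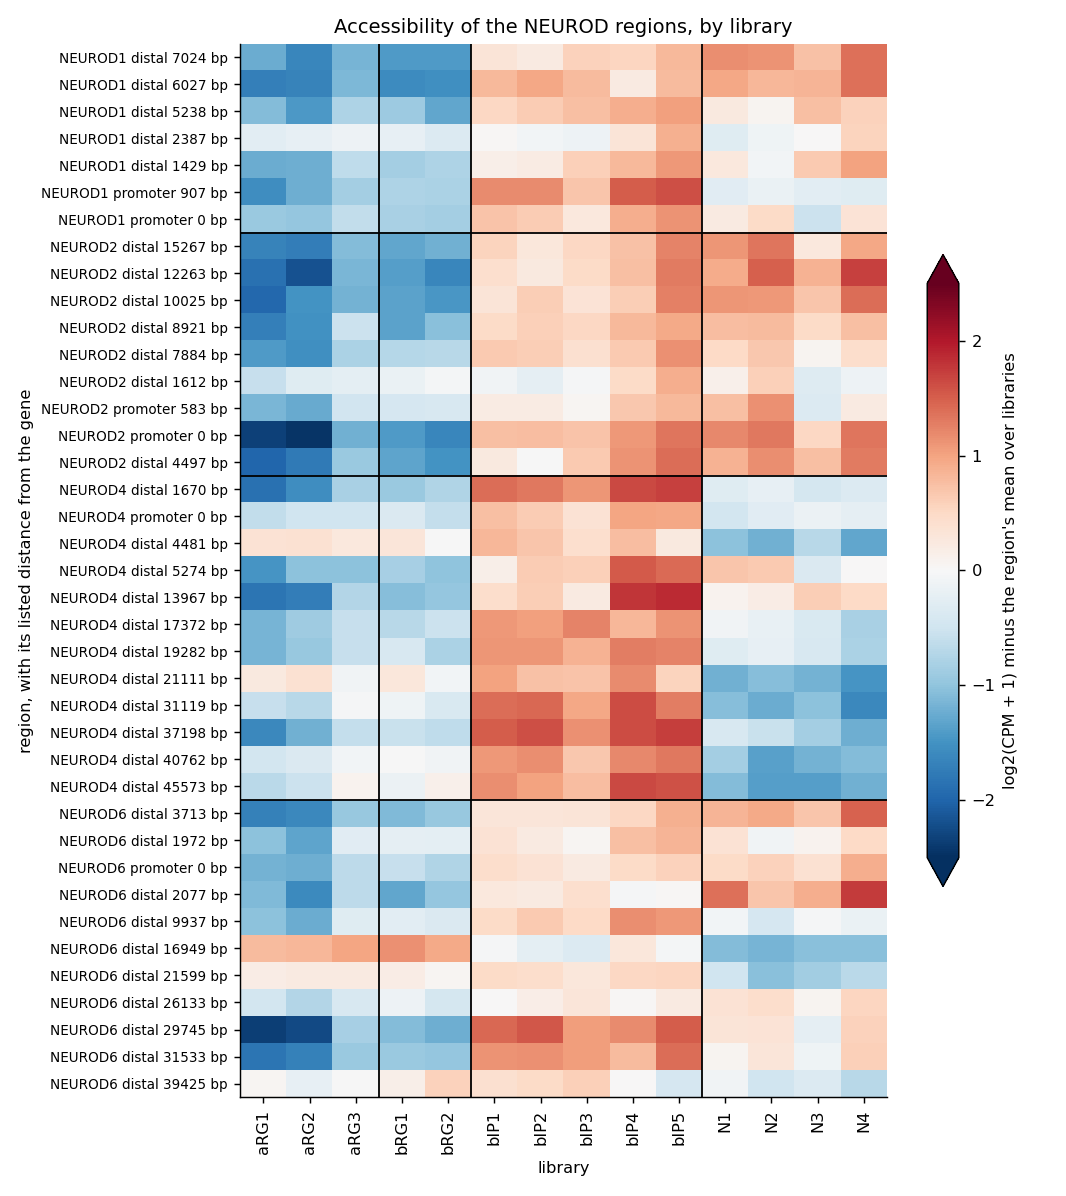
Accessibility of the 39 regions (rows, ordered along each gene by their human position) in the 14 libraries (columns), as log2(CPM + 1) minus the region's mean, red above and blue below. All 12 NEUROD4 rows have their highest mean in bIP, most NEUROD2 rows are red in both bIP and N, and the NEUROD6 region at 16949 bp is red in aRG and bRG.

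Over the 4 genes, bIP had the highest mean of the 4 cell types in 24 regions, N in 13 and bRG in 2. The share of all regions highest in each cell type was not computed, so these counts only describe the NEUROD regions. Between bIP and aRG, 34 of the 39 regions were called higher and 1 lower, while 24.0% of all tested regions were called higher and 20.9% lower. The median log2 change was 2.35 over the NEUROD regions and 0.03 over all tested regions. Between bIP and bRG, 33 regions were higher and 1 lower, beside 20.4% and 16.1% of all regions, with medians of 2.10 and 0.04. Both comparisons share the bIP libraries, and all 39 regions had passed the filter on low counts. Of the 6 promoter regions, all 6 were higher in bIP than in aRG and in bRG, against 11.5% and 10.9% of all promoter regions. Against bRG, the call at 583 bp of NEUROD2 (log2 change 1.01, adjusted p = 0.0319) was lost in many settings, among them the omission of either bRG library, bIP4 or bIP5. The replicate block lost it too (adjusted p = 0.605), with the main promoters of NEUROD1 (0.0649) and NEUROD6 (0.0971).

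Between N and bIP, 4 regions were called higher and 20 lower, where 28.8% and 26.4% of all regions were, with a median log2 change of -0.59 over the NEUROD regions and -0.02 over all. Counts differed by gene: 1 higher and 3 lower of 7 at NEUROD1, 1 higher and 0 lower of 9 at NEUROD2, 0 higher and 11 lower of 12 at NEUROD4, and 2 higher and 6 lower of 11 at NEUROD6. Loess offsets gave 9 higher and 20 lower, where 59274 and 61002 of all 200931 regions were. The second series alone gave 1 and 22, where 50830 and 41986 of all 201113 regions were. The number called higher was 7 without N3 and 2 without either N4 or bIP4, and the number called lower was 19 to 21 on leaving out any library. Over all regions 56802 of 199757 were higher without N3, 53266 of 200341 without N4 and 51405 of 200629 without bIP4. The number lower over all regions was 47232 to 58887 on leaving out any library. At NEUROD2 loess offsets called the main promoter and the regions at 4497, 10025 and 15267 bp higher as well. Of the 6 promoter regions 3 fell in N, both of NEUROD1 and that of NEUROD4, against 22.9% of all promoter regions. The 4 regions that rose were those named above, at 7024 bp of NEUROD1, 12263 bp of NEUROD2, and 2077 and 3713 bp of NEUROD6. Set directly against aRG, N had 27 regions higher and 7 lower, beside 37.1% and 29.2% of all regions. Against bRG, N had 25 higher and 8 lower, beside 32.2% and 25.8%. Each of the 7 regions lower in N than in aRG belonged to NEUROD4, with 5, or to NEUROD6, with 2.

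Basal and apical radial glia were not told apart at these genes. Of the 39 regions 0 were called by edgeR and 0 by DESeq2, 1 had an unadjusted p under 0.05, and the background was 0.0%, or 0 of 200931 regions by edgeR and 7 by DESeq2. The log2 change of bRG against aRG was -0.09 ± 0.29 at the main promoter of NEUROD1, 0.24 ± 0.34 at NEUROD2, -0.11 ± 0.26 at NEUROD4 and 0.21 ± 0.23 at NEUROD6. The background depended on the fit. With the 2 groups alone edgeR called 94 regions higher and 1031 lower, and without aRG3 it called 4 and 7, with 0 NEUROD regions among them in either fit. There were 2 bRG libraries, all in the second series.

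**Figure D3:**
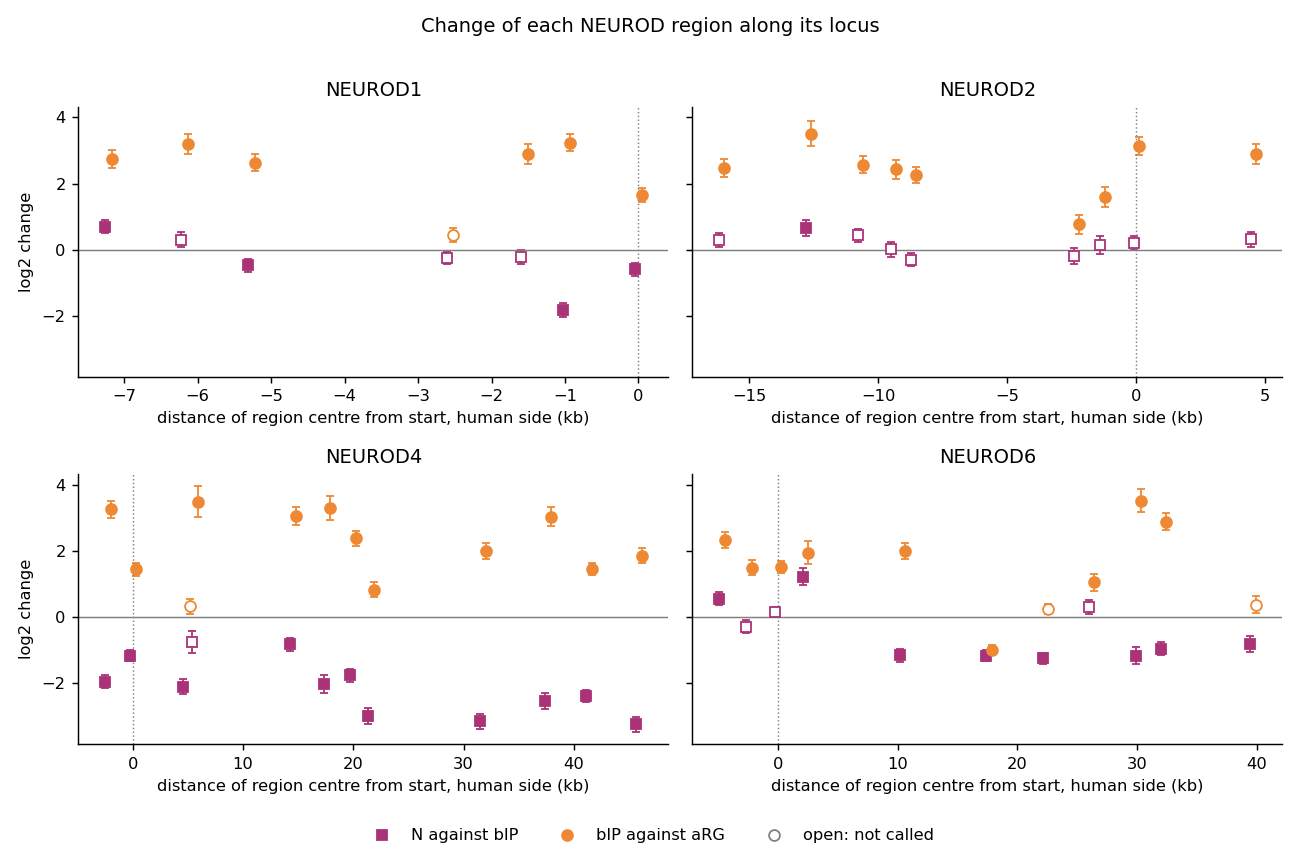
Log2 change with its standard error (vertical axis) of each region against the distance of its centre from the gene's start in human coordinates (horizontal axis, kb), for N against bIP (squares) and bIP against aRG (circles), set slightly apart sideways; open symbols were not called. NEUROD4 squares lie below 0 along the whole locus, down to -3.24, and the NEUROD6 circle at -0.9996 is the region at 16949 bp.

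Whether the promoters of 2 NEUROD genes changed unequally was tested by their ratio within each library. This ratio does not depend on a scaling factor shared by all regions of a library. Loess offsets, which vary with the level of a region, do not cancel in it. With 4 N and 5 bIP libraries the exact two-sided permutation test has 126 splits and can give no p below 0.0159. It counts bIP1 and bIP2, which may be repeats of 1 sample, as separate libraries. Of the 6 pairs, 4 passed after adjustment over the 6. The 6 ratios come from only 4 promoters and are not separate results. How often pairs of other promoters pass was not computed. The log2 ratio of NEUROD2 over NEUROD4 averaged 2.77 ± 0.50 in N and 1.48 ± 0.17 in bIP (difference 1.29, exact p = 0.0159, adjusted p = 0.0238). For NEUROD4 over NEUROD6 the ratio was -2.37 ± 0.27 in N and -1.07 ± 0.15 in bIP, a difference of -1.30 with the same exact p. NEUROD1 lost ground to NEUROD2, with -0.69 ± 0.10 in N and 0.09 ± 0.16 in bIP, and to NEUROD6, with -0.30 ± 0.38 in N and 0.50 ± 0.19 in bIP, each by the same exact p. In these 4 pairs, no N library overlapped with a bIP library, and the differences kept their sign in both library series. NEUROD1 over NEUROD4 differed by 0.51 (exact permutation test, adjusted p = 0.114), being 0.88 in the first and 0.12 in the second series. NEUROD2 over NEUROD6 was 0.40 ± 0.29 in N and 0.41 ± 0.17 in bIP, a difference of -0.01 (exact permutation test, adjusted p = 0.952) that was 0.33 in the first and -0.41 in the second series.

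Between bIP and aRG, with 56 splits and a smallest p of 0.0357, 0 of 6 pairs passed. The libraries aRG1 and aRG2, which may also be repeats of 1 sample, were again counted as separate, as were bIP1 and bIP2. In 3 of the 6 pairs, those with NEUROD2, the unadjusted exact permutation p was 0.0357 and the adjusted one 0.0714. With 3 pairs at the smallest p the adjustment over 6 allows no lower value. The lack of a pass therefore does not show that the promoters changed equally. NEUROD2 gained on NEUROD4 by a log2 difference of 1.82 and on NEUROD6 by 1.74, and NEUROD1 over NEUROD2 had a difference of -1.62. All bIP libraries lay beyond all aRG libraries for each of these pairs. The first series gave 2.27 for NEUROD2 over NEUROD4 and 1.91 for NEUROD2 over NEUROD6, and the second, with 1 aRG library, 0.91 and 1.33. The other pairs differed by 0.20 or less in size. NEUROD4 over NEUROD6 changed sign between series, with -0.36 in the first and 0.42 in the second.

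**Figure D4:**
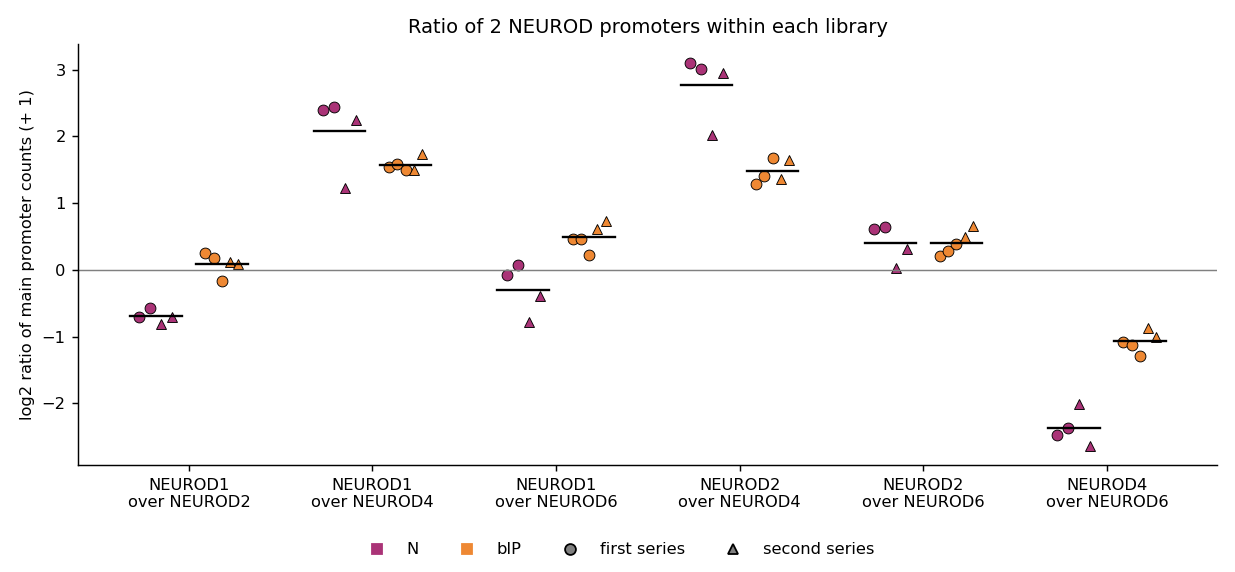
Log2 ratio of the main promoter counts (plus 1) of 2 NEUROD genes in each N library (left of each pair) and each bIP library (right); circles are the first and triangles the second series, lines the group mean. N and bIP do not overlap for NEUROD1 over NEUROD2, NEUROD1 over NEUROD6, NEUROD2 over NEUROD4 and NEUROD4 over NEUROD6.

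Levels were compared between genes per kb of region, since the main promoters differ in length from 939 to 1538 bp. In aRG the order was NEUROD1 with 9.09 ± 1.40 CPM per kb, NEUROD6 with 5.80 ± 1.52, NEUROD4 with 4.68 ± 0.26 and NEUROD2 with 2.56 ± 1.68. The means ± SD of NEUROD6 and NEUROD4 overlapped. In bIP NEUROD1 led with 28.9 ± 6.39 CPM per kb, ahead of NEUROD2 with 22.3 ± 4.50, NEUROD6 with 16.5 ± 1.55 and NEUROD4 with 13.0 ± 2.39, and no neighbours in this order differed by more than the sum of their SDs. In N NEUROD2 led with 25.3 ± 6.05 CPM per kb, followed by NEUROD1 with 19.1 ± 5.40, NEUROD6 with 18.8 ± 3.24 and NEUROD4 with 5.85 ± 0.624. The means ± SD of NEUROD2 and NEUROD1 overlapped there, as did those of NEUROD1 and NEUROD6, while NEUROD4 lay below the other 3 by more than the sum of the SDs. These SDs are between libraries and leave out that the promoters were read in the same libraries. Overlap of the SDs therefore does not show that 2 promoters were equally open.

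Distal regions were also summed for each gene. NEUROD4 summed to 38.2 ± 8.06 CPM in aRG, 45.9 ± 2.68 CPM in bRG, 152 ± 27.1 CPM in bIP and 36.0 ± 3.33 CPM in N. NEUROD6 summed to 78.9 ± 10.3 CPM in aRG, 88.4 ± 4.69 CPM in bRG, 141 ± 12.2 CPM in bIP and 86.3 ± 14.7 CPM in N. Both sums were thus in N near their radial glia level. NEUROD2 reached 89.3 ± 17.8 CPM in N, 76.8 ± 22.3 CPM in bIP and 15.0 ± 6.05 CPM in aRG. NEUROD1 reached 32.2 ± 6.73 CPM in N, 29.9 ± 5.58 CPM in bIP and 8.44 ± 1.67 CPM in aRG. As a share of all counts in a gene's regions, the main promoter of NEUROD6 held 25.1% ± 1.71 in N and 15.3% ± 0.325 in bIP, and that of NEUROD4 held 13.3% ± 2.09 in N and 7.41% ± 0.243 in bIP. For NEUROD2 the share was 27.9% ± 1.33 in N and 28.7% ± 1.51 in bIP, and for NEUROD1 it was 40.3% ± 8.24 in N and 47.2% ± 2.96 in bIP. The N and bIP libraries overlapped for NEUROD1 and NEUROD2 and did not for NEUROD4 and NEUROD6. These sums and shares are descriptions, for which no test was run.

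**Figure D5:**
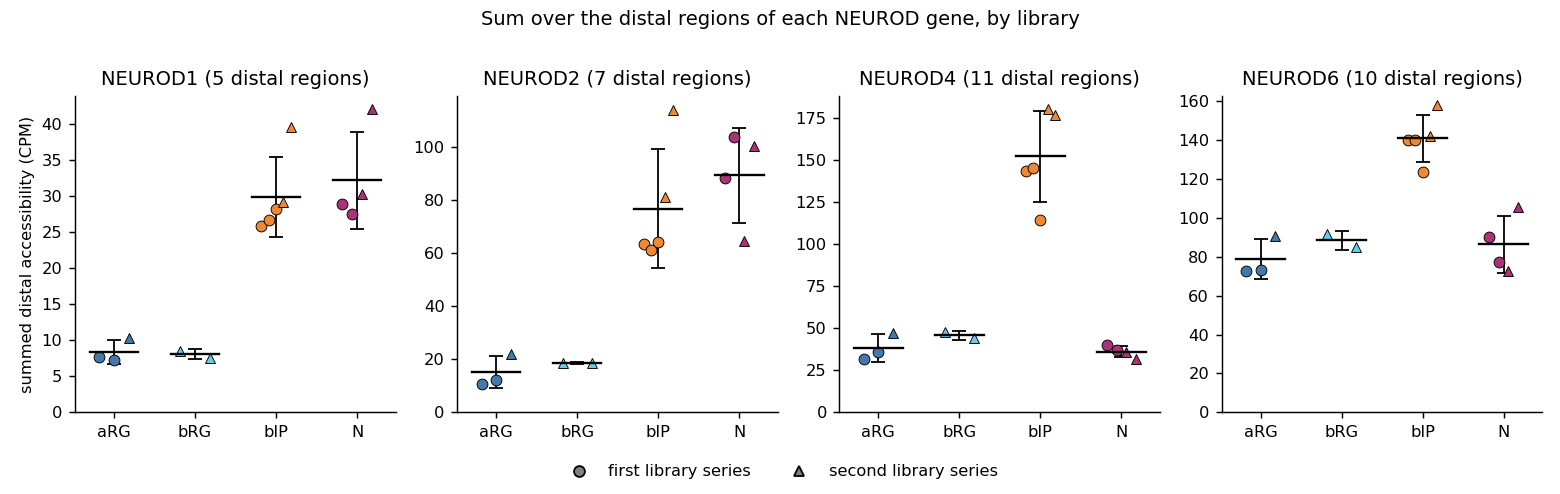
Sum of CPM over the distal regions of each NEUROD gene (vertical axis, from 0) in each library, by cell type; circles are the first and triangles the second library series, bars the mean ± SD. The sums of NEUROD4 and NEUROD6 are highest in bIP, at means of 152 and 141 CPM, and those of NEUROD1 and NEUROD2 are as high in N as in bIP within their spread.

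The promoters most like each NEUROD promoter were sought among 10098 other main promoters of protein-coding genes, by Pearson's r of log2 CPM over the 14 libraries. These values describe the libraries, which share the cell type groups and the series. NEUROD1 was most like AKAIN1 (r = 0.980), SRRM4 (0.976) and CLVS1 (0.971). NEUROD2 was most like SLA (r = 0.996), APOBEC4 (0.993) and CWH43 (0.992). NEUROD6 had NEUROD2 itself as its nearest (r = 0.989), before SLA and CWH43 (0.983 each). In the list of NEUROD2, NEUROD6 was in place 5. NEUROD4 was most like NTMT1 (r = 0.952), FAM170B (0.951) and C1QTNF3 (0.937). Its r was 0.841 with NEUROD1, 0.634 with NEUROD2 and 0.606 with NEUROD6. For NEUROD1 it was 0.889 with NEUROD2 and 0.856 with NEUROD6. SLA, the nearest to NEUROD2, had 5.01 ± 3.26 CPM in aRG, 6.83 ± 0.217 CPM in bRG, 30.3 ± 6.77 CPM in bIP and 35.8 ± 9.02 CPM in N. FAM170B had 0.554 ± 0.234 CPM in aRG, 0.559 ± 0.00429 CPM in bRG, 4.18 ± 1.06 CPM in bIP and 1.12 ± 0.434 CPM in N.

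Other genes of the bHLH network were taken from lists of 31 genes, of which 23 had a promoter region in the table. Between bIP and aRG 8 of the 23 main promoters were called higher and 4 lower, beside 10.7% and 18.4% of all main promoters. Between N and bIP 1 was higher and 13 were lower, beside 13.7% and 22.3%. The median log2 change was 0.25 for bIP against aRG and -0.45 for N against bIP, and over all main promoters it was -0.16 and -0.13. Among other differentiation bHLH genes, NHLH1 rose in bIP by 3.27 ± 0.25 on the log2 scale and was lower in N than in bIP by -0.53 ± 0.19. NHLH2 rose in bIP by 2.42 ± 0.27, with 0.36 ± 0.20 for N against bIP, which was not called. BHLHE22 (1.86 ± 0.20 and -1.61 ± 0.18) moved in both comparisons, as did EOMES (1.40 ± 0.17 and -1.22 ± 0.15) and TBR1 (1.27 ± 0.19 and -0.47 ± 0.17), which mark progenitors and early neurons of the excitatory lineage. MYT1L, a factor that represses non-neuronal genes, rose in bIP by 2.74 ± 0.21, with -0.09 ± 0.16 for N against bIP, not called.

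INSM1, a factor of intermediate progenitors, rose in bIP by 0.70 ± 0.21, and OLIG2, a factor of ventral and glial progenitors, by 0.46 ± 0.18, and neither was called between N and bIP. ATOH1 (-0.52 ± 0.16) and ATOH7 (-0.45 ± 0.16), proneural factors of the cerebellum and retina, fell in N against bIP, and neither was called between bIP and aRG.

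Upstream factors and antagonists were mostly lower in N than in bIP. NEUROG1, a neurogenin that activates NEUROD genes, had a log2 change of 0.40 ± 0.17 for bIP against aRG, not called, and fell in N against bIP by 1.35 ± 0.16. HES1, the Notch effector, fell in bIP by 1.05 ± 0.18 and in N against bIP by 1.05 ± 0.17. HES6, a HES family member that counters HES1 in the mouse, fell in N against bIP by 0.92 ± 0.18 and was not called between bIP and aRG. REST, the repressor of neuronal genes, fell in bIP by 0.88 ± 0.17 and had -0.18 ± 0.16 for N against bIP, not called. Of the ID proteins, which bind E proteins and keep them from DNA, ID1 and ID3 fell in both comparisons and ID4 in neither. TCF4, the measured E protein and so a partner of NEUROD factors, had -0.05 ± 0.17 for bIP against aRG, not called, and fell in N by 0.81 ± 0.16. The single network promoter that rose in N against bIP was NEUROG3, by 1.56 ± 0.28, at 2.17 ± 0.422 CPM in N and 0.716 ± 0.175 CPM in bIP. TCF3, TCF12, ID2, NEUROG2, OLIG1, HES5, HEY1 and CBFA2T3 were not analysed here.

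The consensus peak sets, 1 per cell type with no replicates, gave a second view of 32 of the 39 regions, those off chromosomes 2A and 2B. NEUROD1 was not analysed in them. A peak touched 12 of these regions in the aRG set, 17 in the bRG set, 26 in the bIP set and 20 in the N set. The share of all regions touched by each single set was not computed. Differences between these counts thus cannot be told apart from differences in the size of the sets. The main promoters of NEUROD4 and NEUROD6 were touched in all 4 sets, and that of NEUROD2 in the bIP and N sets. Of the named NEUROD4 regions, those at 31119, 40762 and 45573 bp were touched in bIP and not in N. The NEUROD6 region at 16949 bp was touched in aRG, bRG and bIP and not in N, while those at 2077 and 3713 bp were touched in N alone. The sets state no genome build and were read as gorGor6 positions, for which 63.4% of the table's regions on their chromosomes were touched, against 11.6% after a shift of 50000 bp.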

How the data were processed

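Sorted gorilla organoid cells, profiled by bulk ATAC-seq, were analysed from the authors' deposited table of raw read counts (integers, with no scaling) for each region. The submitters' processing notes name bcl2fastq 2.20.0, MACS2 and, as builds, hg38 and panTro6. Aligner, counting tool and any cut-site shift of reads: not given in the sources used here. Per the labels' protocols, an overnight crosslink reversal followed transposition, and fragments were size selected. Per the file headers the table gives gorGor6 positions, printed here counted from 1, and a closest gene with its distance. From the deposited peak sets, 1 per cell type, only positions and the −log10 q-value of the authors' peak caller were used.

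Of 218080 rows, 13823 without a gorilla position, all at 0, and 8 repeats were left out. The test was edgeR 4.0.16 (R 4.3.3) on raw counts, with TMM scaling, filterByExpr (200931 regions kept, all 39 NEUROD regions among them), and a quasi-likelihood model of group means plus a library series term over all 14 libraries. The Benjamini-Hochberg adjustment ran over every tested region, and a region was called below 0.05. The scripts were tested on simulated data. CPM use TMM factors, and log2 CPM a prior count of 2. Ratios of promoters used counts plus 1 and exact permutation tests (scipy) over libraries. Floors of 3 counts cover counting error only. Without molecular identifiers, PCR reads cannot be taken as independent molecules. aRG1 and aRG2, and bIP1 and bIP2, were the closest replicate pairs (chi-square per degree of freedom 1.08 and 1.09, other pairs 1.49 to 12.2). A value near 1 is what counting error alone gives, so each of these 2 pairs may be repeats of 1 sample. They were kept apart, and summed as an alternative for the calls of regions. The permutation tests of the promoter ratios counted them as separate libraries and were not repeated with them summed.

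The NEUROD genes, the lists and the tests were chosen with earlier results of these data known. Named regions were every promoter region and, of each gene's distal regions, the nearest, the farthest, the most accessible and the 3 with the smallest p over the 4 groups. For likeness, the 3 promoters with the highest Pearson's r were named. RefSeq's genes on a different gorilla assembly (NHGRI_mGorGor1-v2.1_pri) gave the protein-coding status, with 12952 matches by symbol or synonym among the table's 39300 names. DESeq2 1.42.0, other scalings and filters, single library series, a replicate block and leaving out each library were tried as alternatives. The values of 1 gene of the lists are not reported here.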

Additional observations from a re-analysis of the deposited data

Results flagged for a closer look

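Among 52 groups of 4 or 5 libraries, taken over the named regions in N and bIP, 2 held a library whose gap to the nearest other exceeded Dixon's critical value. Chance alone marks about 1 group in 20. At the NEUROD1 region at 6027 bp, bIP4 had 4.82 CPM, while the other bIP libraries had 7.56 to 8.67 CPM. At the NEUROD2 region at 10025 bp, bIP5 had 23.1 CPM, while the other bIP libraries had 11.6 to 14.4 CPM. Without bIP5, the log2 change at 10025 bp for N against bIP was 0.60 and called (adjusted p = 0.0113), while with all libraries it was 0.43 and not called (adjusted p = 0.0615). At 6027 bp it was 0.080 without bIP4 and 0.31 with all libraries, and called in neither case.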

How the results depend on the processing

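Of 134 pairs of a named region and a comparison, 107 were called, 36 of these calls were lost in at least 1 of 25 settings, and 0 of the called changes reversed. The counts of called regions moved by more than 1.5 times in few settings. With at least 10 CPM in 2 libraries, where 24 NEUROD regions were tested, 23 were called between bIP and aRG (35 otherwise) and 22 between bIP and bRG (34). Of all 44039 regions tested with this filter, 14187 were higher and 16676 lower in bIP than in aRG. Against bRG, 12899 were higher and 13089 lower in bIP. Whether same-numbered libraries share more than a number is not stated. Their deviations correlated between -0.288 and 0.546, above 0.1 in 9 of 16 pairs, which does not settle it. With a replicate block 15 regions were called for bIP against bRG, and 20 for N against bRG (33 without the block). Of all 200931 regions the block called 5303 higher and 596 lower for bIP against bRG, and 24000 and 20832 for N against bRG. Leaving out single libraries gave 33 to 35 calls for bIP against aRG, 31 to 34 for bIP against bRG, 32 to 35 for N against aRG, 28 to 33 for N against bRG, 22 to 27 for N against bIP and 0 to 0 for bRG against aRG. Calls over all regions in these fits are not set beside these counts. For N against bIP the split of 4 higher and 20 lower became 9 and 20 with loess offsets, 7 and 14 with the filter of 10 CPM, 1 and 22 in the second series alone, and 2 and 21 with the closest pairs summed. Over all regions loess offsets gave 59274 higher and 61002 lower of 200931, and the filter 15244 and 14755 of 44039. The second series gave 50830 and 41986 of 201113, and the summed pairs 52888 and 51218 of 201302. Of the promoter ratios between N and bIP, 0 passed in the first and 0 in the second series alone, where p cannot fall below 0.2 and 0.333, and 0 to 5 on leaving out single libraries, where the smallest p is larger too. For bIP against aRG it was 0 to 0. Scaling by library totals moved the median of all regions by 0.18 for N against aRG and for bRG against aRG, -0.11 for bIP against bRG and 0.10 for N against bIP, loess offsets by -0.14 and DESeq2 size factors by -0.12 for N against aRG.

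Changes that were not called changed sign as follows, and the cause was not tested. For bRG against aRG, the NEUROD1 main promoter had 0.0073 with no series term, 0.098 with library totals, 0.12 with loess offsets, 0.096 with the 10 CPM filter and -0.16 to 0.051 on leaving out libraries. NEUROD2 had -0.37 in the second series alone and -0.34 with the 2 groups alone. NEUROD4 had 0.071 with no series term, 0.030 in the second series, 0.068 with library totals, 0.061 with the 10 CPM filter, 0.058 with the 2 groups alone and -0.26 to 0.022 on leaving out libraries. NEUROD6 had -0.0063 in the second series. For N against bIP, the second series alone gave -0.24 at the NEUROD2 main promoter, -0.88 at 583 bp (called lower, adjusted p = 0.0174), -0.24 at 4497 bp and -0.38 at 15267 bp. Leaving out libraries gave -0.17 to 0.42 at 583 bp and -0.48 to 0.037 at 1612 bp, where the replicate block gave 0.070. The NEUROD6 region at 1972 bp had 0.013 with loess offsets and 0.0019 with the 10 CPM filter. The NEUROD2 region at 1612 bp had -0.15 for N against bRG in the second series and -0.27 with the 2 groups alone. The NEUROD1 region at 2387 bp had -0.091 to 0.25 for N against aRG on leaving out libraries, and the NEUROD6 region at 39425 bp -0.26 for bIP against aRG in the second series. The ratio of NEUROD2 over NEUROD6 between N and bIP was 0.33 in the first series and -0.090 to 0.12 on leaving out libraries. Between bIP and aRG, NEUROD1 over NEUROD6 had -0.084 in the first series, and NEUROD4 over NEUROD6 0.42 in the second series and -0.27 to 0.052 on leaving out libraries. The 2 bRG libraries limit every comparison with bRG.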
